A study of Mus musculus with 2 samples.

Results

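The genes described here are 6 hormone receptors of the adrenal gland: Nr3c1, the glucocorticoid receptor; Esr1, an estrogen receptor; Prlr, the prolactin receptor; Ghr, the growth hormone receptor; Igf1r, the receptor of insulin-like growth factors; and Insr, the insulin receptor. They were chosen by gene symbol, as receptors of steroid, prolactin, growth hormone and insulin-like signals, out of 16945 annotated genes with at least 1 read. Adrenal glands of B6CASTF1/J females were profiled by long-read RNA sequencing, in which a single read can span a whole transcript. These mice are first-generation hybrids of a C57BL/6J and a CAST/EiJ parent, and were 36 days old. There are 2 libraries of this 1 group, replicate 1 (made from 1 µg of RNA) and replicate 2 (quantity not given in the labels used here), and no treated or mutant group. One label field gives the same animal for both libraries and another gives different animals, so every p-value and spread below may be technical.

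All 6 proteins read a blood-borne signal. Nr3c1 and Esr1 are nuclear receptors: they bind a steroid inside the cell and then bind DNA. Prlr and Ghr are class I cytokine receptors, which sit in the membrane and signal through the kinase Jak2 to the Stat5 transcription factors; both genes also make shorter transcripts that lack most or all of the signalling tail. Igf1r and Insr are receptor tyrosine kinases that pass their signal to insulin receptor substrates, phosphoinositide 3-kinase and Akt. In the adrenal, glucocorticoid is made by the cortex itself, and prolactin, growth hormone and insulin-like factors are known to act on cortex cells.

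The forms of Prlr and Ghr are told apart by their last coding exons, so these sequences are shown. All are from GENCODE M21 transcripts on GRCm38 (mm10), 5′ to 3′; lower case marks bases that all forms of the gene share, and capitals mark the bases that belong to 1 form. For Prlr (plus strand), the lower-case bases are the whole ninth exon, chr15:10326476-10326545. The capitals of the long form are the first 93 bases of its last exon (chr15:10328281-10328373), whose coding part runs on. The capitals of the short forms run up to and include the stop codon, TGA at chr15:10346410-10346502 in the 310-residue form and TAA at chr15:10341774-10341812 in the 292-residue form.
Prlr long form: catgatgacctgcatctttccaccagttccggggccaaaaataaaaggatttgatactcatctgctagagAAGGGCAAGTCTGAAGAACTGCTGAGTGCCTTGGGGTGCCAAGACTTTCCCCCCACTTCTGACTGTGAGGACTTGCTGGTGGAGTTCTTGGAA
Prlr short form of 310 residues: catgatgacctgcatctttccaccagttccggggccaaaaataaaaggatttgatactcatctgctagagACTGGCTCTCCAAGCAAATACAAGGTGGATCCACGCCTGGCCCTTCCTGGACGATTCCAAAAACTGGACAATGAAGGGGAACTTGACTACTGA
Prlr short form of 292 residues: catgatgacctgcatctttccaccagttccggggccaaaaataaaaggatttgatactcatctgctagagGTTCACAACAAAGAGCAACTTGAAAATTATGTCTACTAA
For Ghr (minus strand), the lower-case bases are the last 60 of the eighth exon (chr15:3327974-3328033). The capitals of the receptor form are the whole exon that encodes the membrane-spanning segment (chr15:3325898-3325988). The capitals of the binding protein form are the coding end of its own last exon with the stop codon TAG (chr15:3327604-3327686), which takes the place of the membrane segment.
Ghr receptor form: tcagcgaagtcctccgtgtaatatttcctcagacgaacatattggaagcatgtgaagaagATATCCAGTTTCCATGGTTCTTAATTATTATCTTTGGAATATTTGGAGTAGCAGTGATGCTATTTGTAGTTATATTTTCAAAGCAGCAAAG
Ghr binding protein form: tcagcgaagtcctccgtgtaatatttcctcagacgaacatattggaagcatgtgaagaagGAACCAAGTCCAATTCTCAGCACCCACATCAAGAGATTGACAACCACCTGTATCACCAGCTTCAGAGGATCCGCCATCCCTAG

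Replicate 1 held 1144572 reads of annotated genes and replicate 2 held 414588, so replicate 1 was read 2.76 times as deeply. Levels are given as CPM, reads per 1000000 reads of annotated genes; a count of 0 allows up to 3 reads, or 2.62 CPM in replicate 1 and 7.24 CPM in replicate 2. Cortex markers (6 of 6 read) summed to 54462 CPM in replicate 1 and 71616 CPM in replicate 2, and medulla markers (6 of 6 read) to 9957 and 6790 CPM, so the defining genes of the labelled tissue were present. Markers of neighbouring tissue were also read. Skeletal muscle markers (5 of 6 read, Myh4 at 0) summed to 875 CPM in replicate 1 and 4.82 CPM in replicate 2, adipocyte markers (10 of 10 read) to 7761 and 10984 CPM, and liver markers (5 of 6 read, Fgb at 0) to 18.3 and 2.41 CPM. Replicate 1 therefore stood apart by its muscle reads, and its share of reads in annotated models over 5 kb was 2.63%, against 1.91% in replicate 2. The part of these differences in the receptor results was not tested, and in bulk RNA fewer cells of a type and less RNA per cell cannot be told apart.

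The 6 receptors together had 240 reads, or 209.7 CPM, in replicate 1 and 62 reads, or 149.5 CPM, in replicate 2. Ghr and Prlr had most of them, Igf1r, Nr3c1 and Insr were at an intermediate level, and Esr1 was near the limit of detection. Ghr averaged 75.0 ± 13.4 CPM (SD, n = 2, as for all means below), above 84.1% of the genes read. Prlr averaged 54.8 ± 39.9 CPM, above 79.8% of the genes read, with 83.0 CPM in replicate 1 and 26.5 CPM in replicate 2. Igf1r averaged 20.6 ± 15.4 CPM, Nr3c1 14.2 ± 0.349 CPM and Insr 13.8 ± 0.967 CPM. Esr1 averaged 1.31 ± 1.85 CPM and lay above 18.1% of the genes read.

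Neighbours in this order were mostly not separated. The ranges of the 2 libraries overlapped between Ghr and Prlr, between Prlr and Igf1r, between Igf1r and Nr3c1, and between Nr3c1 and Insr. Only the step from Insr, at 13.1 and 14.5 CPM, to Esr1, at 2.62 and 0 CPM, had no overlap of these ranges. Counting intervals (95% Poisson) of the 2 genes did overlap in replicate 1, from 7.33 CPM for Insr and up to 7.66 CPM for Esr1. In replicate 2 the Insr interval began at 5.31 CPM, below the 7.24 CPM that a count of 0 allows. With full-length models only, Insr averaged 0.534 CPM and Esr1 0 CPM. Within a library, Prlr had 1.27 times as many reads as Ghr in replicate 1 (95% counting interval 0.937 to 1.71) and 0.314 times as many in replicate 2 (0.162 to 0.611), so which of them led differed between the libraries. Igf1r had 2.40 times the reads of Insr in replicate 1 (1.33 to 4.35) and 0.667 times in replicate 2 (0.202 to 2.20). CPM, which counts each read once whatever its length, was the main scale. Copies made by amplification were not told apart. Reads did not always span a whole transcript. In replicate 1, 66 of 75 Ghr reads held all coding introns of an annotated protein, against 7 of 36 Igf1r reads and 0 of 15 Insr reads. The part of transcript length in the order by CPM was not tested. Per kb of model length and 1000000 such units, Ghr (9.75) and Prlr (6.68) still led by the mean of the 2 libraries and Esr1 (0.184) was last. Insr (3.80) stood above Igf1r (2.87) and Nr3c1 (1.07) by that mean. In replicate 2 alone, Insr (6.04) also stood above Prlr (2.07), below Ghr (8.75), while in replicate 1 Prlr had 11.3, Ghr 10.8 and Insr 1.55. The Insr value on that scale came largely from short one-exon models, described below.

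**Figure D1:**
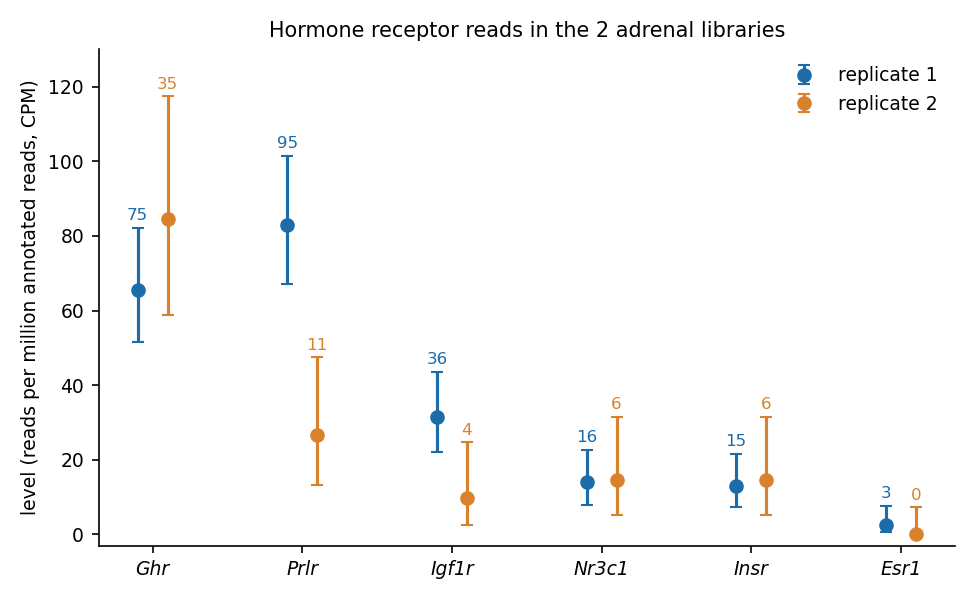
Levels of the 6 receptors in CPM (vertical axis) in replicate 1 (left, blue) and replicate 2 (right, orange); bars are exact 95% Poisson intervals (for the count of 0, up to 3 reads) and numbers are reads. The intervals of the libraries overlap for 5 receptors and not for Prlr, at 83.0 CPM in replicate 1 against 26.5 CPM in replicate 2.

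For each of 9885 genes with at least 10 reads, an exact binomial test (two-sided) asked whether its split of reads departed from that of the scaled library sizes, with Benjamini-Hochberg adjustment. It sets the difference against counting error only. The test called 1383 genes, or 14% (6.13% higher in replicate 1 and 7.86% lower), and 1 of the 5 receptors with enough reads, Prlr, which was higher in replicate 1. Prlr had 95 reads in replicate 1 and 11 in replicate 2, or 83.0 CPM (95% Poisson interval 67.2 to 101) against 26.5 CPM (13.2 to 47.5). This is a log2 ratio of replicate 1 over replicate 2 of 1.54, a 2.91-fold higher level in replicate 1 (adjusted p = 0.00193 in the exact binomial test). A neighbouring annotated gene, Gm21973, overlaps the 3′ part of Prlr on the same strand, and it had 6 reads in replicate 1 and 7 in replicate 2. Counted with Prlr, those reads brought the log2 ratio to 0.94 and ended the call (adjusted p = 0.0571 in the exact binomial test), an alternative added after the data were seen. Under the 6 other alternatives the adjusted p ran between 0.000993 and 0.03 in the same test.

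The other receptors were not called. Ghr had 75 reads in replicate 1 and 35 in replicate 2, or 65.5 and 84.4 CPM, with a log2 ratio of -0.43 (adjusted p = 0.406 in the exact binomial test). Nr3c1 had 16 and 6 reads, or 14.0 and 14.5 CPM (log2 ratio -0.11), and Insr 15 and 6 reads, or 13.1 and 14.5 CPM (log2 ratio -0.20). Both were therefore close in level, within wide counting intervals of 5.31 to 31.5 CPM in replicate 2. Igf1r had 36 reads in replicate 1 and 4 in replicate 2, or 31.5 CPM (22.0 to 43.5) and 9.65 CPM (2.63 to 24.7). Its log2 ratio of 1.54 was as large as that of Prlr, with fewer reads behind it (adjusted p = 0.132 in the exact binomial test). With the unspliced or intron-holding reads left out, Igf1r had 22 reads in replicate 1 and 0 in replicate 2 and was called (adjusted p = 0.0211 in the exact binomial test, and between 0.101 and 0.697 under the 5 other alternatives). Reads assigned to the strand opposite Igf1r, 110 in replicate 1 and 24 in replicate 2, are in none of these counts. Esr1 had 3 reads and 0 reads, or 2.62 CPM (0.541 to 7.66) and up to the 7.24 CPM that a count of 0 allows, and was not tested.

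Prlr (chr15:10177238-10349180, plus strand, 12 annotated transcripts) was read in its long and in its short forms. The long form, Prlr-202, encodes 608 residues with the tail that carries the Stat5 docking sites. The short forms share the hormone-binding and membrane-spanning parts and end a few codons after the shared ninth exon. In replicate 1, 47 reads matched Prlr-202, and in replicate 2, 1 read did. The annotated short form Prlr-205 had no read of its own model in either library. Instead, the most read short transcript was an unannotated combination of annotated splice sites, which joins the first exon of the long form (ending at 10177871) to the last exon of the 310-residue form. It had 13 reads in replicate 1 and 2 in replicate 2, with the same intron chain in both.

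Prlr reads were assigned to an annotated last coding exon by a junction straight from the ninth exon, or by lying within that last exon. Among these, the long form made up 62 of 80 in replicate 1, or 77.5% (95% Wilson interval 67.2 to 85.3%). In replicate 2 it made up 1 of 6, or 16.7% (3.01 to 56.4%). The intervals did not overlap, but no test was made between the libraries, and replicate 2 rests on 6 reads. The 310-residue form made up 16 of 80 reads in replicate 1, or 20.0% (12.7 to 30.0%), and 5 of 6 in replicate 2, or 83.3% (43.6 to 97.0%). The 292-residue form had 2 reads in replicate 1 and 0 in replicate 2. The 303-residue form of Prlr-212 had 0 reads in both, which allows up to 4.58% in replicate 1 and 39.0% in replicate 2 by the upper Wilson limit. The long form was thus the most read in replicate 1 and the 310-residue form in replicate 2. The long form's reads include 10 one-exon reads of its last exon in replicate 1. With reads that cross the splice junction only, its share was 75.4% in replicate 1 and 16.7% in replicate 2.

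Every spliced Prlr read with a first exon began in the upstream one (chr15:10177655-10177871): 79 of 79 in replicate 1 and 10 of 10 in replicate 2. The first exon at chr15:10223986-10224096 had 0 reads, which allows up to 4.64% in replicate 1 and 27.8% in replicate 2. Long and short forms therefore shared the same first exon in these libraries. The second exon, which lies in the 5′ untranslated part, had its annotated 60 bases in 77 of 79 reads in replicate 1 and in 7 of 10 in replicate 2. A 23-base version that uses an unannotated splice site was read 2 times in each library. Other paths out of the ninth exon were also read. A junction from the ninth exon to 10337759 was read 2 times in each library, and a junction to 10333002 was read in replicate 2 only, 1 time. The exon entered at 10337759 was not a last exon. In 1 of its reads per library, a further intron ended at 10338728. The other read ended within the last exon of the 310-residue form, at 10346648 in replicate 1 and 10347424 in replicate 2. It was not counted as that form. With reads of these unannotated junctions counted, the 310-residue form made up 16 of 82 reads in replicate 1, or 19.5%, and 5 of 9 in replicate 2, or 55.6%. The unannotated junctions made up 2 of 82 and 3 of 9. Reads that stopped at the last base of the eighth exon (10325966) numbered 7 in replicate 1 and 1 in replicate 2. The unannotated long-form models ended 121 bases past the stop codon, against 7742 bases for the annotated end. Reads matched to Prlr-202 carry the annotated coordinates, so their own ends are not known.

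**Figure D2:**
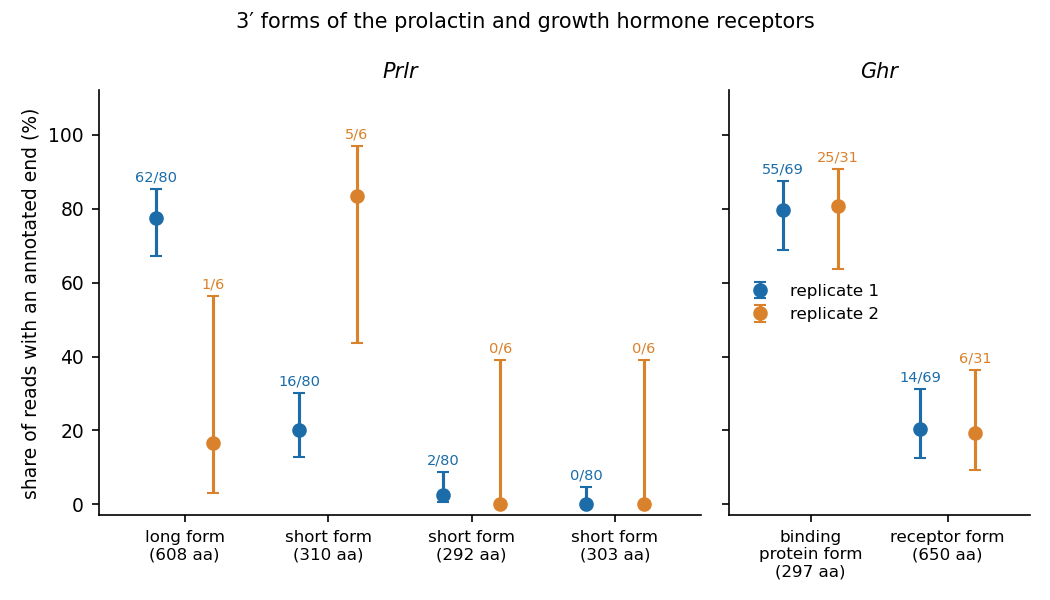
Shares (%) of Prlr reads (left) and Ghr reads (right) by the form of their 3′ end, in replicate 1 (left, blue) and replicate 2 (right, orange); bars are 95% Wilson intervals and numbers are reads over the total. The Ghr shares lay within 1 percentage point of each other, while the Prlr long form was 77.5% in replicate 1 and 16.7% in replicate 2.

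Ghr (chr15:3317760-3583492, minus strand, 10 annotated transcripts) was read mostly in the form that encodes the soluble growth hormone binding protein. In the mouse this protein is made by alternative splicing, and it carries the hormone in blood. Its transcript, Ghr-203 (297 residues), had 50 reads in replicate 1 and 22 in replicate 2. The transcript of the full receptor, Ghr-201 (650 residues), had 9 and 5 reads. By the junction out of the eighth exon, the binding protein form made up 55 of 69 reads in replicate 1, or 79.7% (95% Wilson interval 68.8 to 87.5%). In replicate 2 it made up 25 of 31 reads, or 80.6% (63.7 to 90.8%). The receptor form made up the remaining 14 and 6 reads. The share of each gene's leading annotated isoform was set against all its other full-length reads by Fisher's exact test, where both libraries had 20 or more such reads. After Benjamini-Hochberg adjustment 31 of 3005 genes, or 1.03%, were called. Ghr was not called: Ghr-203 made up 74.6% of 67 full-length reads in replicate 1 and 68.8% of 32 in replicate 2 (adjusted p = 1 in Fisher's exact test).

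The binding protein transcript is the shorter of the pair, at 1171 bases against 4175 for Ghr-201, and the chance that a long transcript is read in full was not tested. With 5 one-exon reads of the receptor's last exon in replicate 1 counted as receptor form, the binding protein share there was 74.3%; the 2 such reads of replicate 2 are of the Genomic class and were not counted. Most Ghr reads began in the first exon of Ghr-201 (chr15:3583000-3583230): 65 of 69 reads with a first exon in replicate 1 and 29 of 32 in replicate 2. A further 4 and 3 reads began in first exons between 3582063 and 3582596. An unannotated cassette exon between the first and the second exon (chr15:3582258-3582502) was held by 2 reads in replicate 1 and 1 in replicate 2, with the same intron chain. The exon at chr15:3388648-3388713, which codes for the first residues of the mature receptor and is a known skipped exon in human GHR, was held by 67 of 68 reads in replicate 1 and 31 of 31 in replicate 2. Complete coding chains were frequent: 66 of 75 Ghr reads in replicate 1 and 30 of 35 in replicate 2 held all coding introns of an annotated protein.

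Nr3c1 (chr18:39410545-39519421, minus strand, 9 annotated transcripts) was read at 16 and 6 reads. A complete coding chain of the 792-residue receptor was held by 3 reads in replicate 1 and by 5 in replicate 2. The most read model with such a chain was an unannotated combination with a first exon at chr18:39489477-39489846, at 2 reads in each library, with the same 9-exon chain. An annotated isoform with its first exon at 39490568 had 1 read in each library, and an annotated isoform of 8 exons had 1 read in replicate 2. First exons of Nr3c1 do not code for protein and are known as alternative starts. Of reads with a first exon, 7 of 13 in replicate 1 and 2 of 4 in replicate 2 used the one at 39489477.

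In replicate 1, 7 of 13 spliced Nr3c1 reads ended in the fourth exon (chr18:39424383-39424499), which codes for the second zinc finger of the DNA-binding domain, while 2 ended in the second exon and 1 elsewhere. The reads that ended in the fourth exon included a partial model with 4 reads and an unannotated model with 2 reads, both of which stopped at its last base. In replicate 2, all 5 spliced reads reached the last exon, which only 3 of 13 did in replicate 1. Nr3c1 also has a form with an extra codon between the zinc fingers, the gamma form. All 15 reads over that junction, 10 in replicate 1 and 5 in replicate 2, lacked the extra codon, which allows a share of up to 27.8% in replicate 1 and 43.4% in replicate 2 by the upper Wilson limit. Reads of Nr3c1's last exon alone numbered 3 in replicate 1 and 1 in replicate 2.

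Esr1 (chr10:4611593-5005614, plus strand, 10 annotated transcripts) had 3 reads, all in replicate 1. Its 2 spliced reads began in a different first exon each and reached the fifth of the 9 exons of an annotated full isoform, so neither held the full ligand-binding domain. The other read was a one-exon read in the last exon. No Esr1 read held a complete coding chain, so no isoform of the receptor can be named from these libraries.

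Among reads on its own strand, Igf1r (chr7:67952827-68233668, plus strand, 6 annotated transcripts) was read as spliced RNA in replicate 1 only. The exception was 1 intron-holding read with a single junction in replicate 2. Reads assigned to the opposite strand were not counted here. Of those, 88 in replicate 1 and 12 in replicate 2 held the first intron of Igf1r. Igf1r-201, the full receptor of 1369 residues with 21 exons and an annotated length of 11409 bases, had 7 reads in replicate 1 and 0 in replicate 2. The short non-coding transcript Igf1r-206 had 1 read. Reads overlapping each exon climbed along the transcript in replicate 1, with 8 at the first exon, 17 at the tenth and 35 at the last. Partial models that lack the 5′ end accounted for 9 reads. One-exon reads in the last exon numbered 14 in replicate 1 and 1 in replicate 2; the largest such model (8 reads) covered chr7:68226168-68226845. At the junction into the eighteenth exon, 18 of 20 reads in replicate 1 used the annotated acceptor at 68211994. A single read used an acceptor 3 bases on, and another passed through an extra exon. Replicate 2 had no read there.

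Insr (chr8:3122061-3279617, minus strand, 5 annotated transcripts) had no read with a complete coding chain in either library. Of its 15 reads in replicate 1, 13 were one-exon reads, and of its 6 in replicate 2, 5 were. They lay mainly in the last exon (chr8:3150922-3156023), with 10 reads in replicate 1 and 5 in replicate 2. A single model, chr8:3150922-3153461, had all 10 in replicate 1, and a model of 234 bases, chr8:3150934-3151167, had 4 in replicate 2. The spliced reads came from the 5′ end: the longest held 10 exons, in replicate 2, and another held 6, in replicate 1. None crossed the 36-base eleventh exon (chr8:3181702-3181737), whose skipping or use makes the A and B forms of the insulin receptor, so the ratio of these forms was not measurable.

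**Figure D3:**
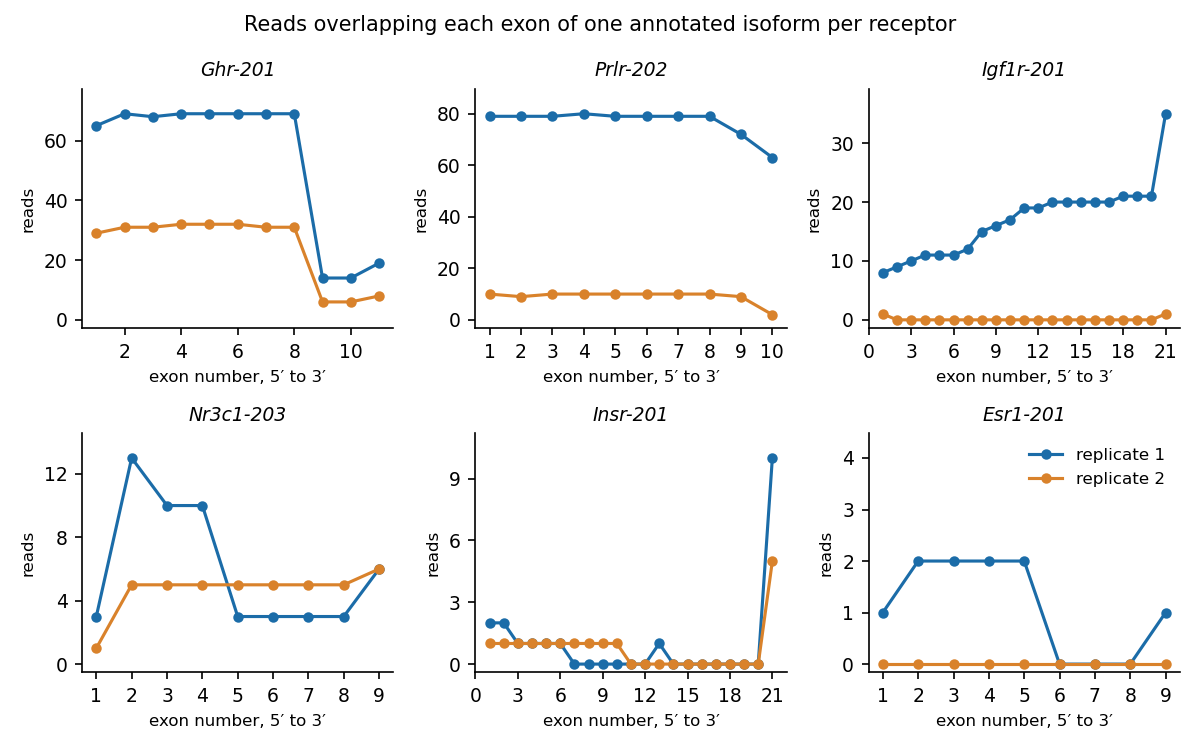
Reads (vertical axes, scaled per panel) that overlap each exon, numbered 5′ to 3′, of 1 annotated isoform per receptor, in replicate 1 (blue) and replicate 2 (orange). Ghr drops after the eighth exon, where the binding protein form ends, Igf1r climbs toward its last exon in replicate 1, and Insr has reads at both ends and few or none between. Reads assigned to the opposite strand, many at the first intron of Igf1r, are not counted.

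The classes of models differed between the receptors. For Ghr, reads of full-length models (annotated, or unannotated with a chain of their own) made up 89.3% of reads in replicate 1 and 91.4% in replicate 2. For Prlr the shares were 73.7% and 81.8%, although annotated models alone made up 50.5% in replicate 1 and 9.09% in replicate 2. For Nr3c1 full-length reads were 37.5% and 83.3%, for Igf1r 33.3% and 0%, and for Insr 6.67% and 0%. Over all annotated genes the shares were 81.9% in replicate 1 and 75.7% in replicate 2. Unspliced or intron-holding reads made up 86.7% and 83.3% of Insr reads, against 6.30% and 8.07% over all genes. The 6 genes had 71 models in replicate 1 and 30 in replicate 2. Of spliced chains, 4 of Prlr, 3 of Ghr and 2 of Nr3c1 were read in both libraries, and none of Esr1, Igf1r or Insr. Prlr had 19 chains in replicate 1 and 8 in replicate 2, Ghr 12 and 8, and Nr3c1 8 and 4. Esr1 had 2 and 0, Igf1r 14 and 1, and Insr 2 and 1, so replicate 2 left little room for an overlap there. The same count was not made over all genes.

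**Figure D4:**
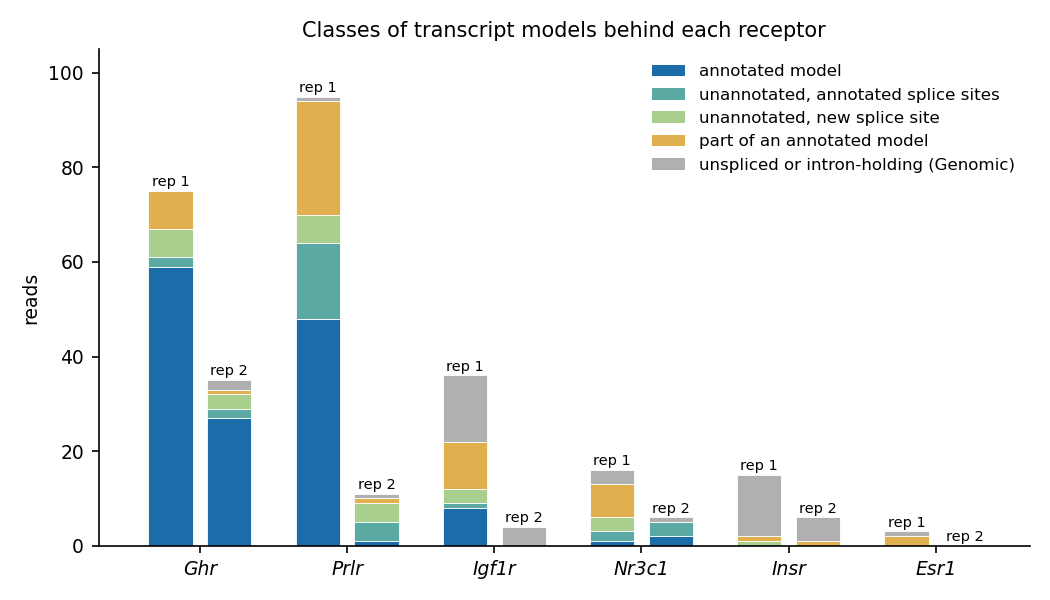
Reads (vertical axis) of each receptor by class of transcript model, with replicate 1 left and replicate 2 right for each gene. Annotated models led for Ghr in both libraries (59 and 27 reads) and for Prlr in replicate 1 (48 reads) but not in replicate 2 (1 read), and unspliced or intron-holding reads led for Insr (13 and 5 reads).

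Among the partners of Nr3c1, the chaperones that hold the unliganded receptor were abundant. All 9 were tested, of which 5 were called higher in replicate 1, 1 was called lower and 3 were not called, beside 6.13% higher and 7.86% lower over all genes tested, with a median log2 ratio of 0.79 against 0.01 over all genes tested. Hsp90ab1 had 2992 CPM in replicate 1 and 1151 CPM in replicate 2, Hsp90aa1 317 and 130 CPM, and Fkbp4 600 and 381 CPM. Fkbp5, which lowers the receptor's affinity and is also one of its targets, had 89.1 CPM and 14.5 CPM, a log2 ratio of 2.47 (adjusted p = 2.9e-06 in the exact binomial test). Bag1 was not called, at 467 and 504 CPM. The enzymes that set glucocorticoid inside cells were not called: Hsd11b1, which regenerates active steroid, had 117 and 79.6 CPM, its cofactor supplier H6pd 48.1 and 74.8 CPM, and the inactivating Hsd11b2 had 0 reads and 1 read.

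Known glucocorticoid target genes went both ways. Of 12 tested, 3 were called higher in replicate 1, 3 lower and 6 were not called, beside the same 6.13% and 7.86% over all genes, with a median log2 ratio of 0.64. Fkbp5 (above), Klf9 (172 and 57.9 CPM) and Ddit4 (46.3 and 12.1 CPM) were higher in replicate 1, while Dusp1 (48.9 and 101 CPM), Errfi1 (28.0 and 57.9 CPM) and the clock gene Per1 (7.86 and 28.9 CPM) were lower. Pdk4 (239 and 169 CPM) and Tsc22d3 (165 and 145 CPM) led the list and were not called. Of 10 nuclear receptor coregulators, 6 were tested, and the corepressor Ncor1 was called, at 83.0 CPM in replicate 1 and 33.8 CPM in replicate 2. The coactivator Ncoa1 (11.4 and 19.3 CPM) was not called.

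Other steroid receptors ranged from no read to levels well above that of Nr3c1. Of 7 listed, 4 were tested and 1, the membrane-associated Pgrmc1, was called (957 and 762 CPM, a log2 ratio of 0.26). The share called over all genes tested was 14%, with 6.13% higher in replicate 1 and 7.86% lower. Pgrmc2 had 107 and 67.5 CPM, not called. The mineralocorticoid receptor Nr3c2, which binds corticosterone too, had 1 read in replicate 1 and 2 in replicate 2, against 16 and 6 for Nr3c1. The second estrogen receptor, Esr2, had 0 reads in both, and the progesterone receptor Pgr had 0 and 2. Of 13 other nuclear hormone receptors, 10 were tested: Ppara (38.4 and 2.41 CPM) and Rxrb (131 and 55.5 CPM) were higher in replicate 1, the thyroid hormone receptor Thrb (4.37 and 19.3 CPM) was lower, and 7 were not called, among them Nr1h2 (153 and 171 CPM) and Nr1h3 (47.2 and 31.4 CPM).

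The relatives of Prlr and Ghr among class I cytokine receptors were little read, apart from Il6st. Of 8 listed, 2 were tested and the shared signalling subunit Il6st was called lower in replicate 1, at 27.1 CPM against 62.7 CPM in replicate 2. Among all genes tested, 6.13% were called higher in replicate 1 and 7.86% lower. Lifr had 9 and 3 reads, Lepr 2 and 2, and Osmr 0 in both. All 13 genes of JAK-STAT signalling were tested. The adaptor Sh2b1 was called lower in replicate 1 (21.8 and 60.3 CPM), beside the same 7.86% over all genes. The 12 others were not called, and the median log2 ratio of the 13 genes was -0.71. Stat5b, a main carrier of the Prlr and Ghr signal, had 57.7 and 94.1 CPM, and Stat3 28.8 and 55.5 CPM. The feedback inhibitor Socs2, a growth hormone target, had 40.2 and 14.5 CPM, not called. Of the listed pituitary and pancreatic ligand genes, Prl, Gh, Ins1 and Ins2 had 0 reads in both libraries, and Pomc had 1 and 3.

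Among the ligands and binding proteins of Igf1r, Igfbp7 had the highest level. Of 12 ligands and binding proteins, 8 were tested, and Igfbp7 was called higher in replicate 1 (1755 and 1066 CPM, a log2 ratio of 0.65). By comparison, 6.13% of all genes tested were called higher in replicate 1 and 7.86% lower. Igfbp4 had 86.5 and 69.9 CPM and the protease Htra1 84.7 and 65.1 CPM, not called, and Igfbp1 had 0 reads. The ligand Igf1 had 10 reads in replicate 1 and 8 in replicate 2, and Igf2 had 1 and 0. Of 24 genes of insulin and IGF signalling, 19 were tested. Beside the same 6.13% and 7.86% over all genes, 2 were called higher in replicate 1 and 17 were not called. The median log2 ratio was 0.26. Akt1, a kinase downstream of phosphoinositide 3-kinase, was among the genes called (898 and 666 CPM, a log2 ratio of 0.36). Grb2 (134 and 113 CPM) and Akt2 (128 and 101 CPM) were not called, and Irs4 and the insulin receptor-related receptor Insrr had 0 reads.

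The marker lists give the tissue behind these values. Their counts of calls stand beside 6.13% called higher in replicate 1 and 7.86% lower over all genes tested. Of 6 cortex markers, Cyp11a1 was lower in replicate 1 (20811 and 41366 CPM), Star (10684 and 8799 CPM) and Mc2r (122 and 60.3 CPM) were higher, and 3 were not called, among them Cyp21a1 (13776 and 12642 CPM). Of 6 medulla markers, Chga (3953 and 2496 CPM), Chgb (3656 and 2547 CPM) and Th (1678 and 1155 CPM) were higher in replicate 1. All 5 muscle markers tested were higher in replicate 1, led by Acta1 (319 and 2.41 CPM) and Ckm (243 and 2.41 CPM); Atp2a1, Tnnc2 and Tcap had 179, 119 and 61 reads in replicate 1 and 0 in replicate 2. Of 10 adipocyte markers, 4 were lower in replicate 1, which were Fabp4 (771 and 2914 CPM), Cidea (793 and 1606 CPM), Cfd (1761 and 1992 CPM) and Car3 (2558 and 2709 CPM). Liver markers were near 0, with Alb at 7 reads and 0 reads, Apoa1 at 6 and 0 and Ahsg at 2 and 1. Of 6 endothelial markers, 5 were tested and Emcn was higher in replicate 1 (97.0 and 48.2 CPM), with Plvap (251 and 289 CPM) and Egfl7 (123 and 104 CPM) not called. No macrophage marker was called of 5 tested, with Cd74 at 188 and 166 CPM, Lyz2 at 123 and 84.4 CPM and C1qa at 67.3 and 55.5 CPM. Of 6 capsule and stroma markers, 4 were tested and Col3a1 was higher in replicate 1 (278 and 171 CPM), with Dcn (149 and 89.2 CPM) and Col1a1 (84.7 and 43.4 CPM) not called and Gli1 at 0.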

How the data were processed

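The 2 libraries were grouped by tissue, strain, sex and age from the labels. The authors deposited raw counts, whole reads of each transcript model, and list a model from 1 read up. Per the labels' protocols this was the ENCODE long-read pipeline for mouse, and per the file headers and notes reads were aligned to mm10 and compared with GENCODE M21, each library on its own, with TALON naming the models. Not given in the sources used here are aligner, tool versions and use of strand. The model lengths and exon coordinates are as deposited, per the file headers. All genes had their models summed; spike-ins and loci outside the annotation were left out of CPM.

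The receptors, gene lists and tests were chosen with earlier results of these data known. Full-length models are the classes Known, NIC and NNC; ISM models are parts of annotated ones, and Genomic models are unspliced or hold intron. Ratios are replicate 1 over replicate 2, on log2(CPM + 1) with TMM factors (1.03 and 0.976). Exact binomial tests used genes with at least 10 reads, Fisher's exact tests genes with 20 or more full-length reads on both sides, both adjusted by Benjamini-Hochberg with a threshold of 0.05. Intervals (95%) and the 3-read floor cover counting error only. A complete coding chain holds every coding intron of an annotated protein and both ends of its coding part. Prlr and Ghr forms were counted over all classes but Genomic. From each of the 19 other lists the text names the 3 members of highest mean CPM, members with 0 reads in both libraries, and members called with a log2 ratio of at least 1 in size; others that it names were chosen after their values were seen. Some genes that this rule selects are not reported here. The tests were tried on simulated counts. Alternatives were DESeq2 size factors, no TMM factor, no read minimum, full-length models only, no Genomic models, and equal depth. Tools were Python 3.11.15, scipy 1.17.1, edgeR 4.0.16 and DESeq2 1.42.0.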

Additional observations from a re-analysis of the deposited data

Results flagged for a closer look

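Reads on the strand opposite a receptor were kept out of every count above and had no control to be set against, and those of Igf1r, Prlr and Nr3c1 included a locus with more than the 3 reads that a count of 0 allows. Opposite Igf1r, loci outside the annotation had 110 reads in replicate 1 and 24 in replicate 2, against 36 and 4 reads of Igf1r itself. Most lay at its 5′ end, where a single locus had 95 and 15 reads. Of these, 88 reads in replicate 1 and 12 in replicate 2 were spliced, with an intron whose ends (67952952 and 68003810) are those of the first intron of Igf1r on its own strand. That intron was held by 8 Igf1r reads in replicate 1 and 0 in replicate 2. Whether these reads were transcribed from the opposite strand or only assigned to it was not tested. Opposite Prlr there were 14 reads in replicate 1 and 15 in replicate 2. Opposite Nr3c1 there were 4 reads in replicate 1, of which 2 held an intron of Nr3c1 itself (39487245 to 39489477), which 7 Nr3c1 reads held too. Opposite Insr there were 7 reads in replicate 1, spread over 7 loci, and 3 in replicate 2, over 2 loci, so no single locus there exceeded 3 reads.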

How the results depend on the processing

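No paired analysis was possible because both libraries belong to 1 group. Prlr alone was called under 5 of the alternatives; without Genomic models 2 receptors were called (Prlr and Igf1r), and with Gm21973 counted in, 0. The count of genes called ran between 990 and 1391. The order of mean levels changed for 3 receptors per kb. The leading isoform test called 309 genes over all classes but Genomic, against 31. The pooled Prlr long form share of 73.3% became 100% over annotated models alone, which hold no short form read here. Left-out libraries gave 16.7% to 77.5%, so it rests on replicate 1. The Ghr binding protein share of 80.0% ran between 76.2% and 83.7% under alternatives added after the data were seen. The Nr3c1 log2 ratio turned to 0.15 at equal depth, with no call either way. At the depth of replicate 2, forms of Nr3c1, Insr, Igf1r and Esr1 could not be compared; the cause of these changes was not tested.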
